A study of Mus musculus with 15 samples.

Results

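The genes described here encode 9 enzymes that work inside hepatocytes: Bhmt, Cyp2e1, Pck1, Arg1, Tat, Hpd, Cps1, Fbp1 and Ass1, out of 29659 genes with a value in each of 15 thalamus libraries. They were taken by symbol from a set of liver genes selected on their measured difference between 5ELKO and 5EL in these same libraries, in which Alb, Bhmt, Cyp2e1 and Pck1 were already known to differ. All mice were labelled as homozygous for human APOE4 knocked into the Apoe locus, which the mouse Apoe value of 1 library, ELKO replicate 1, goes against, and were 4.5 months old. EL mice (n = 3 libraries) carry this allele with Lilrb4a intact, and ELKO mice (n = 3) lack Lilrb4a. In 5EL mice (n = 5) the 5xFAD amyloid transgenes, driven by the neuronal Thy1 promoter, are added, and 5ELKO mice (n = 4) have these transgenes and no Lilrb4a. Lilrb4a deletion is constitutive, so it is not limited to microglia. The thalamus was taken after perfusion with cold PBS, and polyadenylated RNA of the bulk tissue was sequenced. The question asked of these enzyme genes was whether their levels followed that of Alb, which encodes the secreted plasma protein albumin, from library to library.

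Hepatocytes share these reactions along the liver lobule. Periportal hepatocytes, next to the incoming blood, make glucose and urea, and pericentral hepatocytes, around the central vein, hold most of the cytochrome P450 enzymes for drug and alcohol oxidation. Pck1 and Fbp1 catalyse steps of gluconeogenesis. Cps1, Ass1 and Arg1 belong to the urea cycle, Tat and Hpd break down tyrosine, Bhmt remethylates homocysteine with betaine as the methyl donor, and Cyp2e1 oxidises ethanol and small solvents. Unlike albumin, none of these enzymes is secreted into plasma. Ass1 is also used by brain cells, where it recycles citrulline to arginine.

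Promoter windows of 7 of the 9 enzyme genes and of Alb were taken from RefSeq on GRCm38.p6, each 300 bases long, from 250 bases before to 50 bases after the transcription start. Pck1, Cyp2e1, Ass1 and Alb are shown because Pck1 followed Alb most closely, Cyp2e1 parted from Pck1 in 2 libraries, and Ass1 did not keep it without EL replicate 1. Capitals mark matches, on either strand, to 5 short motifs that were chosen with the sequences in view and do not overlap each other in these windows. They are the core promoter's TATA box, the half-site of the hepatocyte factor HNF1, the half-site that nuclear receptors bind, the half-site of the cAMP response element, and the CCAAT box; their letters are given after the windows. The windows lie at chr2:173152823-173153122 on the plus strand for Pck1, chr7:140763569-140763868 on the plus strand for Cyp2e1, chr2:31470020-31470319 on the plus strand for Ass1 and chr5:90460620-90460919 on the plus strand for Alb.
Pck1: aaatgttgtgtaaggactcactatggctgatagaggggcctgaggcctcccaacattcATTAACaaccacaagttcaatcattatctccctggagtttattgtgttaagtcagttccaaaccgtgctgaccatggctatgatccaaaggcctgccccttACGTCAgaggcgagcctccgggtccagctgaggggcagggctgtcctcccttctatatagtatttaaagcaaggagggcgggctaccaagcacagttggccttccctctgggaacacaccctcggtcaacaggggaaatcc
Cyp2e1: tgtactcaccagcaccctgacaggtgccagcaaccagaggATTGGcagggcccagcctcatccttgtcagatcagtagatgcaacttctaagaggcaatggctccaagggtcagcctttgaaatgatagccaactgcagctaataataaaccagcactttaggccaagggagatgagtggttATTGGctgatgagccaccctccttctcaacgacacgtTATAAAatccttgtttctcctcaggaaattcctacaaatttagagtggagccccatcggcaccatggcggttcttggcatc
Ass1: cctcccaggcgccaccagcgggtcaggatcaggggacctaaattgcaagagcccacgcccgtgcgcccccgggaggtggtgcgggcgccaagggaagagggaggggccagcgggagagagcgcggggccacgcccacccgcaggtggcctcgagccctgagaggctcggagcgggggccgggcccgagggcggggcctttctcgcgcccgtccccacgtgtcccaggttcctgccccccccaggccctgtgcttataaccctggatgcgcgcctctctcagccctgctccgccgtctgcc
Alb: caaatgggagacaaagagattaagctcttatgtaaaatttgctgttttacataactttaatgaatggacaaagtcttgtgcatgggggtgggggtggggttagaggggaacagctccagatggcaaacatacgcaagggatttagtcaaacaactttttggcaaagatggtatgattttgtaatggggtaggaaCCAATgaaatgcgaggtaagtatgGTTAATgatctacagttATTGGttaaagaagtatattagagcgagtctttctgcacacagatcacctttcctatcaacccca
The HNF1 half-site (GTTAAT) stood in 7.1% of 32851 mouse promoter windows of this length, and was found in Pck1 and Alb among the 8 windows read. The cAMP response half-site (ACGTCA) stood in 7.51% of all windows and in Pck1. The TATA box, searched as TATAAA, was found in 13.6% of all windows and in Cyp2e1. The nuclear receptor half-site, searched as AGGTCA, was found in 16.3% of all windows and in Bhmt, which held 3 copies. The CCAAT box, searched by its 5 letters, was present in 37.4% of all windows and in 5 of the 8. The Ass1 window held none of the 5 motifs and was 74% G and C, a share that 4.77% of all windows reached or passed, while Alb at 40% was below the median window of 52.7%. These matches describe letters and not bound sites.

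The Lilrb4a level was at its lowest in every library labelled as deleted, with log2 values of at most 2.33 in the 4 5ELKO and 3 ELKO libraries. It ran from 2.40 to 2.66 in 5EL and was 2.34, 2.42 and 2.38 in EL replicates 1 to 3, so EL replicate 1 lay only just above the deleted libraries. Deleted and intact libraries differed by -0.15 (exact permutation test, two-sided, p = 0.00171), and 5ELKO and 5EL by -0.20 (exact permutation test, two-sided, p = 0.0159). Of the libraries that stood apart, EL replicate 1 had the highest Alb value, 8.59. The library labelled ELKO replicate 1 had a mouse Apoe value of 10.90, against 5.92 to 6.37 in the other 14, which goes against its label. EL replicate 3 had the highest Hba-a1 value, 8.45, and 5EL replicate 1 and ELKO replicate 2 were rich in choroid plexus transcripts, with Ttr at 13.71 and 14.66 against at most 10.31 elsewhere. All 8 thalamic neuron markers, Tcf7l2 and Slc17a6 among them, were detected in each library at a log2 value of 3.32 or more, which is 10 on the linear scale.

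The deposited values are on a log2 scale that draws genes with few reads towards a floor of their own, so differences of such genes are understated, and no read counts were used here. Since the values are not scaled to gene length, levels are compared between libraries and never between genes. Except for Fbp1, which reached 3.32 in 4 of 15 libraries, each enzyme gene was at or above 3.32 in all 15. Between 4 and 8 libraries lay within 0.05 of the gene's own lowest value for every member but Ass1, for which only EL replicate 3 did. In bulk tissue, fewer cells of a type and less RNA per cell cannot be told apart.

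Pck1 (chromosome 2, 173153048 to 173159273, plus strand) encodes the cytosolic phosphoenolpyruvate carboxykinase that commits carbon to glucose synthesis. Its log2 values were 3.92, 3.97, 3.80, 3.80 and 3.81 in 5EL and 4.15, 3.85, 4.27 and 3.99 in 5ELKO. They were 4.61, 3.81 and 3.79 in EL and 3.78, 3.80 and 3.80 in ELKO. EL replicate 1 was the highest of all libraries, 3 of 4 5ELKO libraries lay above the 5EL range, and all 4 lay above the ELKO range. Fbp1 (chromosome 13, 62864753 to 62888282, minus strand), the fructose-1,6-bisphosphatase of the same pathway, ran only from 3.19 to 3.46. Its highest library was 5ELKO replicate 3, and its values in the 4 groups overlapped.

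Cps1 (chromosome 1, 67123026 to 67231259, plus strand) encodes the mitochondrial enzyme that brings ammonia into the urea cycle. Its log2 values were 3.85, 3.99, 3.87, 3.93 and 3.84 in 5EL, 4.07, 3.94, 4.22 and 4.17 in 5ELKO, 4.36, 3.85 and 3.83 in EL, and 3.84, 3.94 and 3.84 in ELKO. As with Pck1, EL replicate 1 was highest and 3 of 4 5ELKO libraries were above every 5EL library. Arg1 (chromosome 10, 24915221 to 24927484, minus strand), the arginase that releases urea, was 3.51, 3.61, 3.45, 3.55 and 3.48 in 5EL and 3.76, 3.50, 3.75 and 3.57 in 5ELKO. In EL it was 3.76, 3.48 and 3.47, and in ELKO 3.44, 3.50 and 3.47. EL replicate 1 and 5ELKO replicates 1 and 3 were the 3 high libraries, and 5ELKO replicates 2 and 4 lay inside the 5EL range. Arg1 is also made by some macrophages, whose markers are given below. Ass1 (chromosome 2, 31470207 to 31520672, plus strand), which joins citrulline and aspartate, had 10.66, 10.41, 10.72, 10.34 and 10.33 in 5EL, 10.57, 10.71, 10.61 and 10.62 in 5ELKO, 10.71, 10.27 and 9.84 in EL, and 10.57, 10.53 and 10.46 in ELKO. No 5ELKO library was outside the 5EL range for Ass1, and EL replicate 3 was low.

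Tat (chromosome 8, 109990437 to 109999803, plus strand) encodes tyrosine aminotransferase, the first step of tyrosine breakdown. It was 3.63, 3.68, 3.58, 3.65 and 3.62 in 5EL, 3.92, 3.66, 3.83 and 3.87 in 5ELKO, 3.90, 3.61 and 3.58 in EL, and 3.61, 3.72 and 3.58 in ELKO. The high libraries were again 5ELKO replicates 1, 3 and 4 and EL replicate 1, and 5ELKO replicate 2 lay inside the 5EL range. Hpd (chromosome 5, 123171807 to 123182727, minus strand) encodes the dioxygenase that acts next. Its values were 3.60, 3.50, 3.41, 3.44 and 3.42 in 5EL, 3.64, 3.44, 3.49 and 3.69 in 5ELKO, 3.91, 3.42 and 3.41 in EL, and 3.43, 3.46 and 3.43 in ELKO. The 5EL and 5ELKO ranges overlapped for Hpd, and 5EL replicates 1 and 2, whose Alb was the highest of their group, were also its high 5EL libraries. Hpd overlaps Psmd9 on the other strand, and because reads were counted without strand the 2 genes cannot be told apart where they overlap; Psmd9 ran from 8.65 to 9.01.

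Bhmt (chromosome 13, 93616675 to 93637961, minus strand) was 4.33, 4.21, 4.19, 4.19 and 4.21 in 5EL, 4.68, 4.59, 4.51 and 4.64 in 5ELKO, 4.63, 4.25 and 4.20 in EL, and 4.21, 4.55 and 4.22 in ELKO. It was the only enzyme gene whose 4 5ELKO libraries all lay above every 5EL library. ELKO replicate 2 reached the 5ELKO range at an Alb value of 6.23, and 5EL replicate 1 was the highest of 5EL; these are the libraries rich in choroid plexus transcripts, and the part of that tissue in the Bhmt values was not tested. Reads shared with the paralog Bhmt2, which ran from 2.08 to 2.198, could have been lost in counting. Cyp2e1 (chromosome 7, 140763739 to 140774987, plus strand) was 4.66, 4.80, 4.73, 4.496 and 4.63 in 5EL, 5.65, 4.79, 4.70 and 4.98 in 5ELKO, 5.36, 4.53 and 4.70 in EL, and 4.49, 4.56 and 4.52 in ELKO. Its 2 high libraries were 5ELKO replicate 1 and EL replicate 1, and 5ELKO replicate 3, which had the highest Alb of its group at 8.38, was inside the 5EL range.

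**Figure D1:**
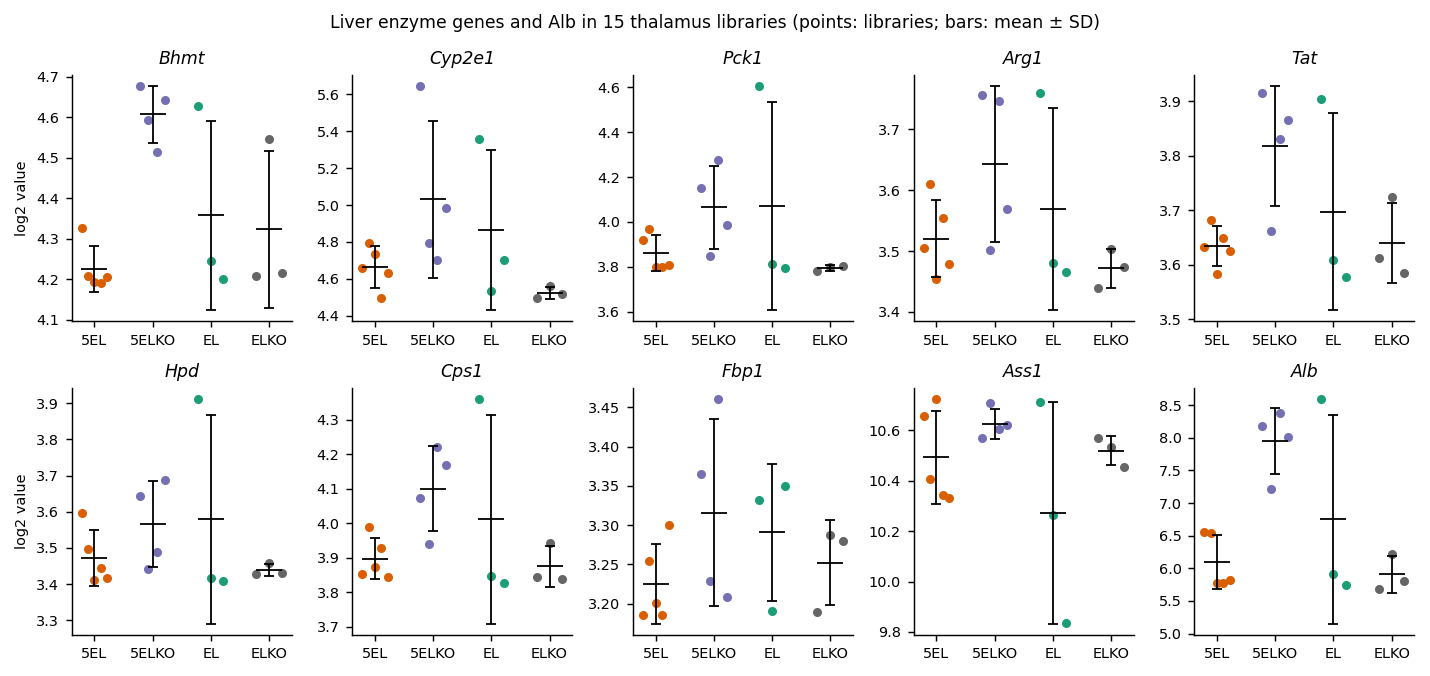
Log2 values (vertical axes) of the 9 enzyme genes and Alb in each library, by genotype group; points are libraries and bars are the mean ± SD of 5 (5EL), 4 (5ELKO), 3 (EL) and 3 (ELKO) libraries. EL replicate 1 is the highest library for Pck1, Arg1, Hpd, Cps1 and Alb, and only Bhmt and Alb separate 5ELKO from 5EL completely.

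Differences between 5ELKO and 5EL are given as a description with no test, since they were known when the genes were picked. On the log2 scale 5ELKO minus 5EL was 0.38 (SE 0.05) for Bhmt, 0.37 (SE 0.15) for Cyp2e1, 0.21 (SE 0.07) for Pck1, 0.20 (SE 0.06) for Cps1, 0.18 (SE 0.05) for Tat, 0.12 (SE 0.06) for Arg1, 0.09 (SE 0.06) for Hpd and 0.13 (SE 0.08) for Ass1, and Alb differed by 1.85. Fbp1 missed the filter over these 9 libraries, and its group means differed by 0.09. The difference of Cyp2e1 rested in part on 5ELKO replicate 1 and was 0.16 without it; that of Pck1 was 0.14 without 5ELKO replicate 3, and that of Hpd was 0.05 without 5ELKO replicate 4. Complete separation with 5ELKO above 5EL was seen for 1 of the 8 enzyme genes that passed the filter and for 0.603% of the 15743 genes tested.

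The 3 other comparisons were tested over 15804 genes with limma and Benjamini-Hochberg adjustment. None of the 9 enzyme genes had an adjusted p under 0.05 in ELKO against EL, in 5EL against EL or in 5ELKO against ELKO, and 0% of all genes passed in each of them. At a nominal p under 0.05, limma had 166 higher and 206 lower genes in ELKO against EL, 604 and 613 in 5EL against EL, and 234 and 141 in 5ELKO against ELKO. With each library recentred on its median these splits were 101 and 317, 455 and 800, and 279 and 94.

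Without amyloid, deletion of Lilrb4a left the enzyme genes with a median log2 difference of -0.10 over the 9, against 0.00326 over all genes, and 0 of 9 at a nominal p under 0.05. ELKO minus EL was -0.34 (SE 0.21) for Cyp2e1, -0.28 (SE 0.16) for Pck1 and 0.25 (SE 0.16) for Ass1 (adjusted p = 0.998 for each, limma). Without EL replicate 1 these values were -0.09, -0.01 and 0.47 (adjusted p = 0.284 for Ass1, limma), and those of Bhmt, Tat, Hpd and Cps1 turned from negative to positive, the largest of these being Bhmt at 0.10. The value of Ass1 was 0.03 without EL replicate 3.

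With Lilrb4a intact, 5EL minus EL had a median of -0.11 over the 9 genes, against 0.000632 over all genes. The lowest values were -0.21 (SE 0.14) for Pck1 and -0.20 (SE 0.19) for Cyp2e1, and Ass1 was 0.22 (SE 0.14), with adjusted p-values of 0.649, 0.712 and 0.644 from limma. Without EL replicate 1, 7 of the 9 values turned from negative to positive, with Pck1 at 0.06 and Cyp2e1 at 0.05. The value of Ass1 was 0.44 without EL replicate 1 (adjusted p = 0.0838, limma) and 0.00300 without EL replicate 3.

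Without Lilrb4a, 5ELKO minus ELKO was positive for all 9 genes, with a median of 0.18 against -0.000486 over all genes. These values rest on the same 5ELKO libraries as the choice of the genes. Cyp2e1 was at 0.51 (SE 0.20), Bhmt at 0.28 (SE 0.10), Cps1 at 0.23 (SE 0.10), Tat at 0.18 (SE 0.07) and Arg1 at 0.17 (SE 0.07), the 5 genes of 9 with a nominal p under 0.05, where 1.48% of all genes were higher at that level; the adjusted p was 0.999 for each (limma). This nominal count depended on single libraries. Without 5ELKO replicate 1 only Bhmt had a nominal p under 0.05, and Cyp2e1 was at 0.30. The count was 3 without 5ELKO replicate 3 and without 5ELKO replicate 4, and 2 without ELKO replicate 3. Without the library labelled ELKO replicate 1 it was 0, with Bhmt at 0.23. It rose to 7 without EL replicate 1, where 257 of 15831 genes were higher at that level. Without 5ELKO replicate 2 it was 6, where 296 of 15800 genes were higher. All 4 5ELKO libraries lay above every ELKO library for Cyp2e1 and Pck1, as 1.78% of all genes did, while Bhmt was held back by ELKO replicate 2.

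Whether the enzyme genes followed Alb inside a genotype group was tested with a limma slope on the Alb value, with the 4 group means in the model. Library values of liver genes were known when the genes were picked, so the p-values are no independent support. The adjusted p was under 0.05 with a positive slope for 4 of the 9 genes and for 0.133% of all genes, 21 of 15803. Pck1 rose by 0.28 log2 units for each log2 unit of Alb (SE 0.02, adjusted p = 0.000163), Cps1 by 0.18 (SE 0.02, adjusted p = 0.00488), Hpd by 0.17 (SE 0.03, adjusted p = 0.0124) and Tat by 0.12 (SE 0.02, adjusted p = 0.0362). Arg1 had a slope of 0.12 (adjusted p = 0.0873, limma), Bhmt of 0.13 (0.190), Cyp2e1 of 0.24 (0.229), Ass1 of 0.18 (0.229) and Fbp1 of 0.04 (0.546). Each slope was far below 1, on a scale that understates changes of low genes more than those of Alb.

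**Figure D2:**
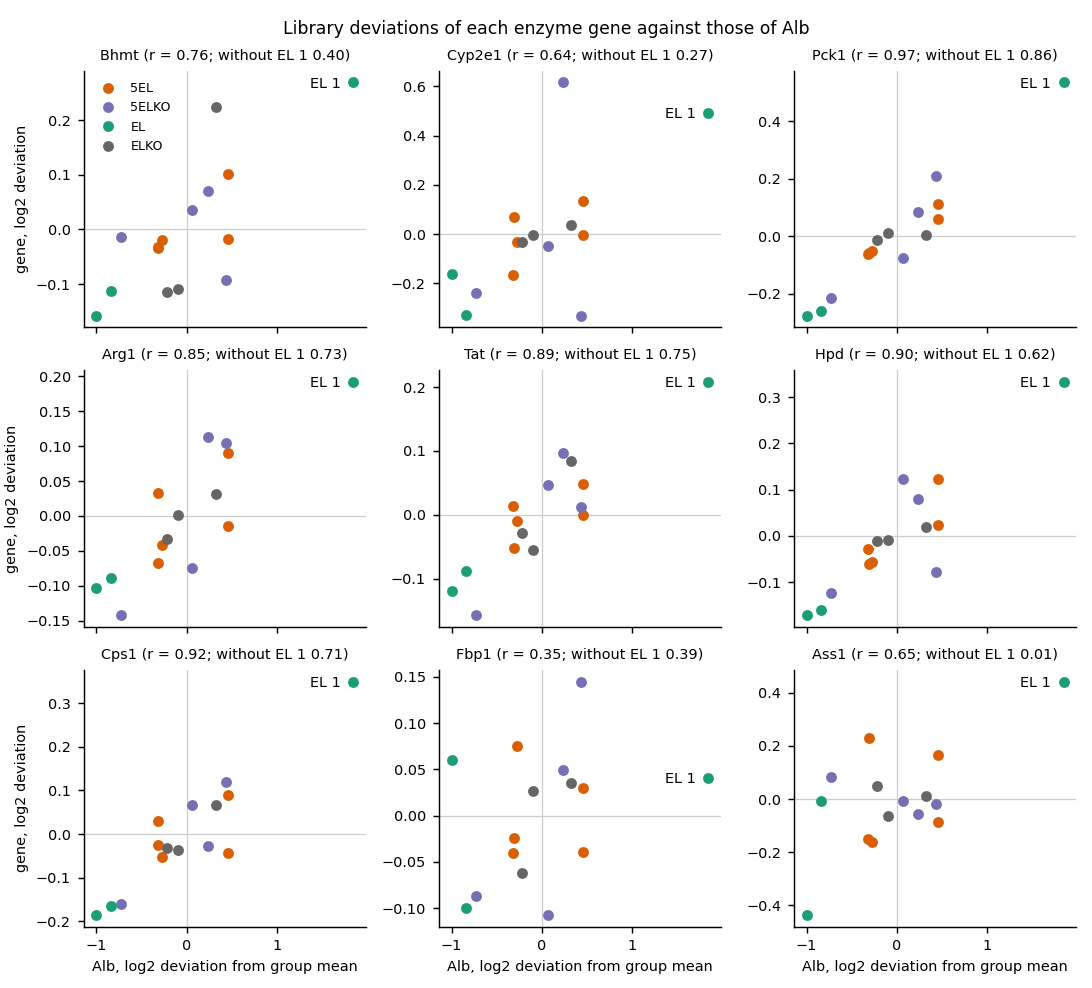
Deviation of each enzyme gene from its group mean (vertical axes, log2) against the deviation of Alb (horizontal axes, log2) in 15 libraries, coloured by genotype. EL replicate 1 stands at the right of every panel at an Alb deviation of 1.84; Pck1 keeps an r of 0.86 without it, and Ass1 drops to 0.01.

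One library carried much of this. Without EL replicate 1, 0 of 15830 genes passed the adjusted threshold, with 464 positive and 280 negative slopes at a nominal p under 0.05 (limma). The slopes of Pck1, Arg1, Tat, Cps1 and Hpd were then 0.24, 0.15, 0.14, 0.14 and 0.13, with nominal limma p-values of 0.000244, 0.00634, 0.00704, 0.0119 and 0.0284; 2.93% of all genes had a positive slope at that nominal level. Bhmt (0.10, SE 0.07), Cyp2e1 (0.17, SE 0.17) and Fbp1 (0.08, SE 0.06) had slopes within 2 SE of 0, and Ass1 had 0.00364 (SE 0.11). Without EL replicate 3, 2 of the 9 genes passed.

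**Figure D3:**
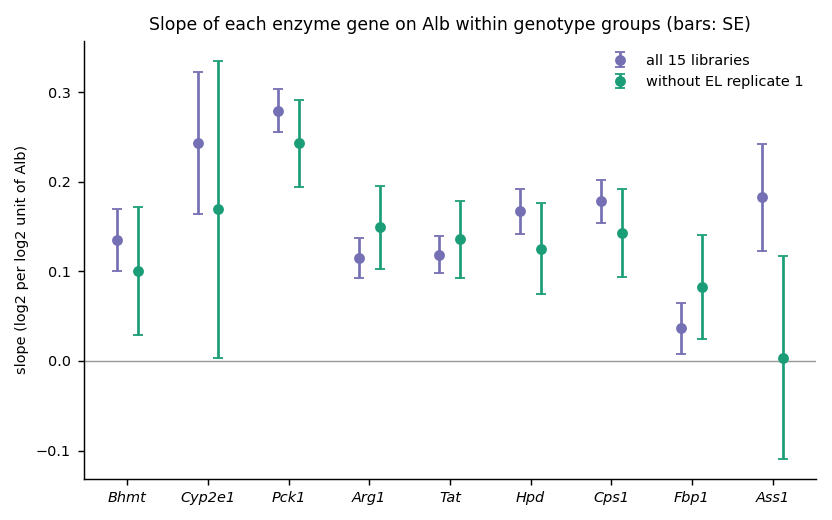
Slope of each enzyme gene on Alb (vertical axis, log2 units per log2 unit of Alb) within genotype groups, with SE bars, in 15 libraries and without EL replicate 1. Ass1 falls from 0.18 to 0.00364 when that library is left out, whereas Pck1 moves from 0.28 to 0.24.

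As a description, the correlation with Alb over the 15 libraries, centred on group means, had a Pearson r of 0.97 (Spearman rho 0.90) for Pck1, 0.92 (0.73) for Cps1, 0.90 (0.82) for Hpd, 0.89 (0.77) for Tat and 0.85 (0.76) for Arg1. Bhmt had 0.76 (0.67), Ass1 0.65 (0.35), Cyp2e1 0.64 (0.57) and Fbp1 0.35 (0.29). The points share the group means and the depth of their library. An r of 0.5 or more was seen for 8 of the 9 genes and for 11.4% of all genes. Without the 2 libraries farthest from the median Alb deviation, EL replicates 1 and 3, r was 0.86 for Pck1, 0.75 for Tat, 0.73 for Arg1, 0.71 for Cps1, 0.62 for Hpd, 0.48 for Fbp1, 0.39 for Bhmt, 0.29 for Cyp2e1 and -0.06 for Ass1. The 36 pairs of enzyme genes had r between -0.22 and 0.92, with a median of 0.62, and Pck1 and Cps1 were the closest pair and Fbp1 and Ass1 the lowest. The 21 pairs without Fbp1 and Ass1 had r of at least 0.497. Those 2 genes were left out as the genes of the lowest pair, which by itself raises this minimum. The genes outside the 9 whose levels were most like the mean of the enzyme genes were Serpina1a (r = 0.98), Gc (0.98), Fgg (0.97), Alb (0.96) and Ahsg (0.96), each of which encodes a plasma protein secreted by hepatocytes.

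Pck1 and Cyp2e1, 1 periportal and 1 pericentral, parted in 5ELKO replicates 1 and 3, in opposite directions. The Cyp2e1 value minus the Pck1 value was 0.43 in 5ELKO replicate 3 and 1.50 in 5ELKO replicate 1, with 0.70 to 0.995 in the other 13 libraries. Textbook zone markers, picked after these values had been seen, were then read in the same libraries. The enzyme genes Fbp1, Ass1, Tat, Hpd and Bhmt were not among these markers. Of them, only Fbp1 had its highest 5ELKO value in 5ELKO replicate 3, at 3.46. Ass1, of the periportal urea cycle, had its highest 5ELKO value in 5ELKO replicate 2, at 10.71. Of 6 pericentral and 8 periportal genes, Cyp2c37 and Hsd17b13, 1 of each kind, stayed within 0.05 of their lowest value in all 15 libraries and are left out of the counts that follow. Of the other 5 pericentral genes, 0 had their highest 5ELKO value in 5ELKO replicate 3. Cyp1a2 (1.59), Cyp2c29 (3.02) and Cyp2c50 (2.44) were within 0.05 of their lowest value there, as they were in 10 to 12 of all 15 libraries, and were at 1.65, 3.21 and 2.61 in 5ELKO replicate 1. Cyp2a5 was at 2.12 in both of these libraries and did not part. Of the other 7 periportal genes, 5 had their highest 5ELKO value in 5ELKO replicate 3, namely Pck1, Cps1, Hal, Cyp2f2 and Pigr (3.04), and Arg1 and Sds had theirs in 5ELKO replicate 1. These counts include Pck1 and Cyp2e1, by which the parting was first seen. 5ELKO replicate 3 also had the highest Alb of its group, and the share of all genes highest there was not counted. EL replicate 1 was high in both, with Cyp2e1 at 5.36 and Pck1 at 4.61. Most of these markers are low and close to their floor, no test was run, and the source of the difference was not tested.

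**Figure D4:**
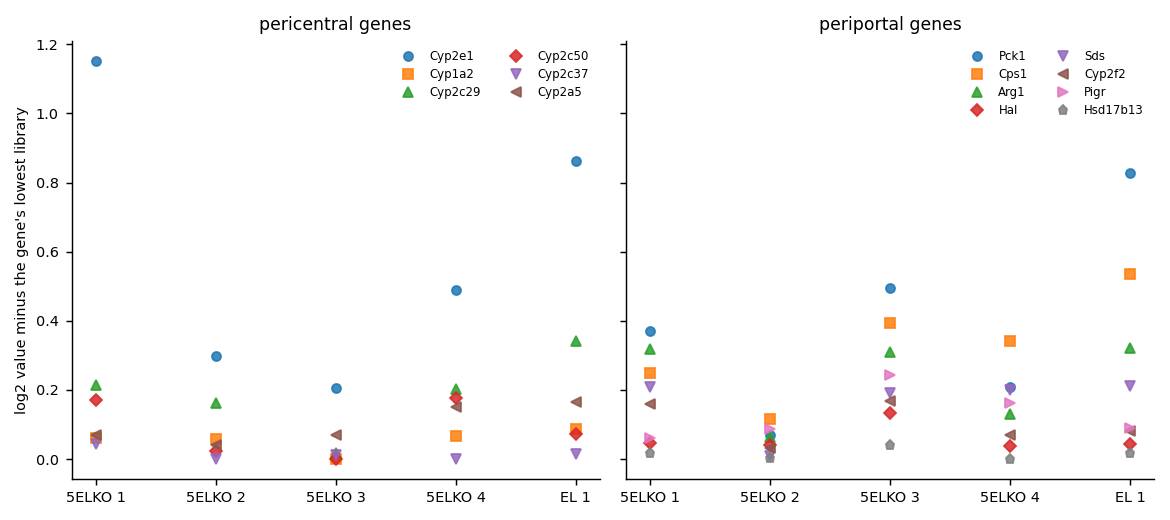
Log2 value minus the gene's own lowest library (vertical axis) for 6 pericentral and 8 periportal hepatocyte genes in the 4 5ELKO libraries and EL replicate 1. In 5ELKO replicate 3 the pericentral genes sit near 0 apart from Cyp2e1, at 4.70 on the log2 scale, and Cyp2a5, at 2.12, while Pck1, Cps1 and Arg1 stand clear of it.

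Other enzymes of the same pathways were read in the same fit. In the gluconeogenesis list, Pck1 was the 1 gene of 6 tested that passed the slope test. Pcx and Slc37a4, which work in the same pathway, had slopes of -1.12e-06 and -0.05. In the urea cycle list, Cps1 was the 1 gene of 7 tested that passed; Otc was below the filter, with 2.11 in EL replicate 1 and 1.96 to 2.01 elsewhere. In the tyrosine list, Tat and Hpd passed of 4 tested, and Fah and Gstz1 had slopes of -0.07 and -0.03. None of the 11 betaine and methionine genes tested, Bhmt among them, passed; of the other 10, Gnmt, Mat1a and Mtr had the highest r with Alb, at 0.86, 0.73 and 0.54, and Cth had the lowest, at -0.47. None of the 8 drug oxidation genes tested passed. Adh1 had an r of 0.88, Cyp3a11 of 0.81 and Gsta3 of 0.71, while Aldh1a1 had -0.70 (slope -0.26, adjusted p = 0.206, limma) and the log2 sum of the list had -0.63. Of these 8 genes, 6 had a positive slope. Such a sum adds linear levels, so genes with high values, Aldh1a1 among them, weigh most in it. None of the 5 other amino acid enzymes tested passed, with Tdo2 at an r of 0.83, Gls2 at -0.37, Kmo at -0.43 and the log2 sum of the list at -0.35. Of these 5 genes, 3 had a positive slope. Over these lists no gene passed in the negative direction. Pcx, Slc37a4, Fah, Gstz1, Aldh1a1 and Gls2 had mean log2 values of 8.27 to 11.4. At such values a small part of their RNA that followed Alb could go unseen.

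Mat1a, the methionine adenosyltransferase of adult hepatocytes, was, like Bhmt, high in every 5ELKO library and in EL replicate 1. It was 3.95, 4.04, 3.93, 3.91 and 3.92 in 5EL, 4.68, 4.29, 4.25 and 4.21 in 5ELKO, 4.42, 3.92 and 3.90 in EL, and 3.95, 3.98 and 3.91 in ELKO. In ELKO replicate 2, where Bhmt reached the 5ELKO range, Mat1a lay below every 5ELKO library.

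Of 20 secreted plasma protein genes tested, 18 had a positive slope on Alb (median slope 0.12, against 0.000451 over all genes), and 7 of these passed the adjusted threshold, namely Apoa1, Ahsg, Fga, Fgg, Serpina3k, Serpinc1 and Hpx. Trf, which encodes transferrin, had a slope of -0.16 (adjusted p = 0.252, limma). The median slope of the 9 enzyme genes was 0.17. With the mean of Apoa1, Apoa2 and Serpina3k in place of Alb, 3 enzyme genes and 0.108% of all genes passed with a positive slope. The enzyme genes were Hpd (adjusted p = 0.0046), Cyp2e1 (0.017) and Pck1 (0.02; limma). Cps1 and Tat passed against Alb alone and Cyp2e1 against this mean alone; the difference between the 2 references was not tested.

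Transcription factors that define hepatocytes were mostly low. Of 12 factors, 9 were below 3.32 in every library, Hnf4a among them, at 2.74 in 5ELKO replicate 1 and 2.72 in EL replicate 1 against 2.53 to 2.57 elsewhere. The 3 that were tested, Foxa1, Cebpa and Prox1, had r with Alb of 0.05, -0.21 and 0.02. Cebpa and Prox1 had mean log2 values of 7.73 and 11.2, where a small part that followed Alb could go unseen. The kidney, intestine, fat and macrophage lists were read beside these. Slc34a1, which defines the kidney proximal tubule, was at -2.09 to -2.08 in all libraries, Fabp2 of enterocytes at -1.73 to -1.72, and Adipoq of adipocytes at -0.59 to -0.56. All 5 adipocyte markers were within 0.05 of their lowest value in every library. Of 7 enterocyte markers, Fabp1, also a hepatocyte gene, had a slope of 0.17 on Alb (adjusted p = 0.0128, limma), while Vil1 and Krt20 had r of -0.24 and -0.38. Of 5 kidney markers, 2 were below 3.32 in every library, and Lrp2 had an r of 0.71 (slope 0.08, adjusted p = 0.207, limma). Of 8 macrophage markers, 4 were detected in every library, Mrc1, Cd163, Lyve1 and F13a1, with r between -0.06 and -0.01. Their list summed to 178 to 227 on the linear scale in 5EL, 156 to 192 in 5ELKO, 174 to 194 in EL and 169 to 207 in ELKO. Blood left in the tissue would show in the erythroid list. That list summed to 130 to 165, 124 to 194, 149 to 695 and 112 to 123 in these groups. Its log2 sum had an r of -0.69 with Alb. In EL replicates 1, 2 and 3 the erythroid sums were 149, 290 and 695, at Alb values of 8.59, 5.91 and 5.75. No r without these libraries is given, and the part of blood in the liver transcripts was not tested. Choroid plexus genes, as a log2 sum, had an r of 0.21 with Alb, and without the 2 libraries rich in them Pck1, Cps1 and Hpd passed the slope test and Tat had an adjusted p of 0.0572 (limma).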

How the data were processed

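Bulk RNA sequencing was read from 1 table per library. According to the submitters' processing notes and methods, reads were checked with FastQC 0.11.9, trimmed with Trimmomatic 0.39, aligned to GRCm38 with HISAT2 2.2.1 and SAMtools 1.16.1, counted per gene without strand with featureCounts 2.0.3, and handled in DESeq2 1.38.3. The values deposited by the authors are on a log2 scale; the transform and annotation release are not given in the sources used here. No counts were used and the read totals of the libraries were not analysed here, so no interval from counts is given. The 9 genes and all gene lists were chosen with earlier results of these data known. Some listed genes are not reported here and were left out of the counts of their lists. Groups came from the labels, which do not say how replicates were obtained; p-values measure the spread between these libraries. limma 3.58.1 in R 4.3.3 (trend, Benjamini-Hochberg) was fitted to genes at 3.32 or more in at least 3 of 15 libraries, or 4 of 9 for 5ELKO against 5EL, and was tested on simulated data. The text names the 9 genes, Alb, Lilrb4a, listed genes that passed a test or otherwise up to 3 a list with the highest correlation with Alb, the 5 genes most like the mean, and, chosen after their values were seen, Otc, Mat1a, Hnf4a, zone markers, defining markers of other tissues and pathway genes named for contrast. Deviations from the group means correlated between EL and ELKO libraries of equal number (r of 0.453, 0.325 and 0.742). In the other comparisons r between libraries of equal number ran from -0.320 to 0.228. Libraries of unlike number were not compared, so whether the numbers pair the libraries was not tested. The labels do not say what libraries of equal number share. Positions are from GENCODE on GRCm38. Figures used matplotlib 3.10.9 in Python 3.11.15. Alternatives covered the filter, the variance prior, recentring, left-out libraries, the replicate block, the libraries fitted and the reference gene.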

Additional observations from a re-analysis of the deposited data

Results flagged for a closer look

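Over 22 sets of values (9 enzyme genes, Alb and Lilrb4a in the 5EL and the 5ELKO groups), 1 library stood far from the rest of its group. Bhmt in 5EL replicate 1 was 4.33 against 4.19 to 4.21 in the other 4 5EL libraries, a gap of 0.886 of the group's whole range. Chance flags about 1 in 20 such groups. The same library had a Ttr value of 13.71; its part in the Bhmt value was not tested.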

How the results depend on the processing

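The count of enzyme genes with an adjusted p under 0.05 was 0 in ELKO against EL, 5EL against EL and 5ELKO against ELKO in every alternative fit, the replicate block and each fit without 1 library (0 to 0) included. In 5ELKO against 5EL, the difference by which the genes had been picked, a pass is no support for an enzyme gene. There 3 higher genes of all genes passed, Bhmt among them, and 1 with the replicate block, where Bhmt did not. Bhmt passed in 4 of 9 fits without 1 library, and did not pass with no filter on low values. A block was not fitted for the slope on Alb. For the slope on Alb the count of 4 became 2 with a variance prior without a trend and 0 with a filter at 5, where Ass1 alone of the 9 was left; without 1 library it ran from 0 to 4, and without the EL group, a fit added after seeing the data, it was 0. Over all genes, the 21 positive slopes became 56 with no filter, 3 with a filter at 5, 12 without a trend, 32 without group terms, 8 without EL replicate 3 and 0 without EL replicate 1. The median r with Alb of 0.85 became 0.618 without EL replicates 1 and 3, and ran from 0.617 to 0.887 without 1 library. The median difference of 5ELKO from 5EL, 0.19, ran from 0.15 to 0.25 without 1 library. Over 5EL against EL, 20 higher and 11 lower genes passed without EL replicate 1 against none with it, no enzyme gene among them. The causes were not tested. With 3 or 4 libraries in most groups, and low genes drawn to a floor, small differences of these genes could have been missed.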
